A study of Drosophila melanogaster with 12 samples.

Results

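The ecdysone response genes are the genes through which the steroid hormone ecdysone acts on transcription: the receptor pair EcR and usp, and the early and late transcription factor genes Eip74EF, Eip75B, Eip78C, Eip93F, br, Hr3, Hr4 and ftz-f1. These 10 genes were chosen by name, and each was kept where the array annotation assigned at least 1 probe set to that gene alone. Of the 10 genes, 8 were measured, by 16 probe sets, among 11982 genes measured in all. No probe set was listed for Eip74EF or Eip75B in the annotation used here, and both were not analysed here.

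RNA was taken from whole adult heads 60 h after eclosion, in 4 groups of 3 arrays that the labels describe as biological replicates. The groups were the wild-type control w1118, the tbph mutants tbphΔ23 and tbphΔ142, and a neuronal rescue. TBPH is the fly homolog of the RNA-binding protein TDP-43, and the study describes both mutants as null alleles made independently and used as homozygotes. The rescue carried UAS-TBPH and the driver elav-GS-GAL4 in a tbph 23/23 background and was fed 5 mM RU-486 (mifepristone) for the 60 h after eclosion, which switches this GeneSwitch driver on in neurons but not in the other cells of the head. The other 3 groups received food without RU-486, and no group carried the transgenes without drug or the drug without transgenes, so TBPH expression, transgenes and drug cannot be told apart in any comparison with the rescue. The comparison of the rescue with tbphΔ142 differs by tbph allele as well. None of the sources used here gives the sex of the flies or the number of heads per array.

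In insects ecdysone is oxidised to its active form, 20-hydroxyecdysone, which binds a heterodimer of the nuclear receptors EcR and Ultraspiracle (usp). The bound receptor switches on a first tier of transcription factors, the early genes, among them br and Eip75B. These in turn control late genes and a timed sequence of nuclear receptors in which Hr3 activates ftz-f1. The cascade is best known for driving moulting and metamorphosis, and in adult flies ecdysone signalling also acts in the nervous system, where it has been linked to memory, sleep and courtship.

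Values are log2 intensities normalised by RMA (robust multi-array average), so a difference of 1 is a doubling of signal. A gene was called changed where limma gave a Benjamini-Hochberg adjusted p under 0.05 over all 11982 genes. The median level of an array lay between 4.40 and 4.50. The neuronal marker elav (9.37 to 9.87 over the 12 arrays) and the glial marker repo (8.26 to 8.92) were well above this, and the photoreceptor marker ninaE was not analysed here. The brighter TBPH probe set read 7.96 to 8.02 in w1118, 8.11 to 8.32 in tbphΔ23, 5.32 to 5.52 in tbphΔ142 and 9.13 to 9.78 in the rescue. It was thus not lower in the arrays labelled tbphΔ23 than in w1118, and since its place relative to the tbphΔ23 deletion is not given, it checks that label neither way. The rescue arrays lay further from each other (mean distance 48.7 over all genes) than those of any other group (21.4 to 23.0), and the first rescue array lay furthest out, at 62.2 on average from the other 2.

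**Figure D1:**
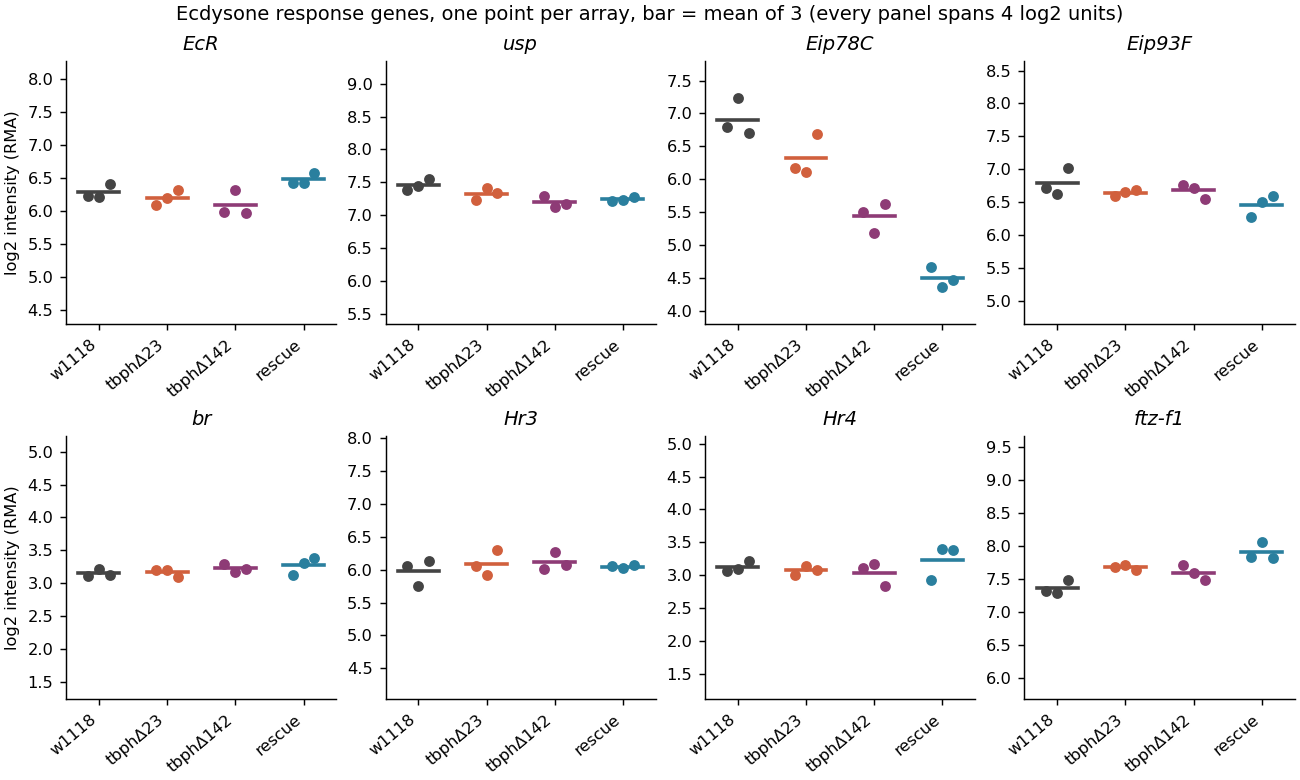
Level of the 8 measured ecdysone response genes on each array. The y axis is log2 RMA intensity (the span is the same in every panel), points are arrays and bars are means of 3. Eip78C steps down from a mean of 6.91 in w1118 to 4.50 in the rescue, ftz-f1 is highest in the rescue, and Hr3, Hr4 and the gene-level median of br, which dim probe sets set, show no called difference.

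Of the 8 genes, 5 (Eip78C, ftz-f1, usp, EcR and Eip93F) were called in at least 1 of the 6 comparisons made, and Eip78C was called in all 6. In tbphΔ23 against w1118, 1 member was higher and 1 lower, where 21.3% of all genes were called (9.40% higher and 11.9% lower). In tbphΔ142 against w1118, 2 were lower and 0 higher, where 25.0% of all genes were called (15.0% lower). The rescue had 1 member lower and 0 higher than tbphΔ23 (background 29.5%, of which 14.3% higher and 15.1% lower), and 2 higher and 1 lower than tbphΔ142 (27.5%, 14.3% and 13.2%). Against w1118 the rescue had 1 member higher and 3 lower (35.0%, 16.9% and 18.0%). Between the alleles 1 member was lower in tbphΔ142 than in tbphΔ23, where 3.49% of all genes were called (1.42% higher and 2.07% lower). With 8 members these counts do not set the genes apart from the background, and the changes are described gene by gene. Comparisons that share the w1118 arrays or a mutant's arrays are not independent of each other.

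The arrays of the 2 groups compared did not overlap for 2 of the 8 members in tbphΔ23 against w1118, where this held for 38.2% of all genes, and for 2 in tbphΔ142 against w1118 (39.8%). They did not overlap for 4 members in the rescue against tbphΔ23 (43.0%), 3 against tbphΔ142 (39.9%) and 5 against w1118 (45.9%), and for 1 between the alleles (24.1%). A lack of overlap was thus common over the whole array and is given below as a description.

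**Figure D2:**
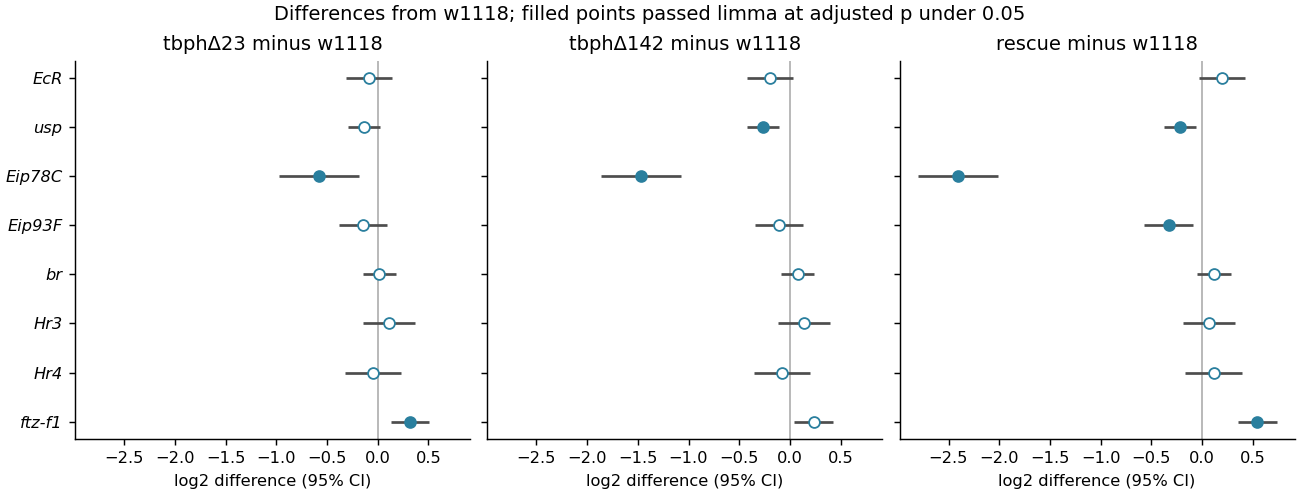
Difference of each group from w1118 for the 8 measured genes, on the log2 scale with its 95% confidence interval. Filled points passed limma at an adjusted p under 0.05. Eip78C lies left of zero in all 3 panels, furthest in the rescue at -2.41.

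EcR, the hormone-binding partner of the receptor pair, read 6.23, 6.21 and 6.41 in w1118, 6.09, 6.19 and 6.32 in tbphΔ23, 5.99, 6.32 and 5.97 in tbphΔ142 and 6.43, 6.42 and 6.58 in the rescue. All 3 rescue arrays were above every array of the other groups, and the arrays of both mutants overlapped those of w1118. EcR rose in the rescue against tbphΔ142 (log2 difference 0.39 ± 0.10 SE, 1.31-fold, limma adjusted p = 0.0157). Its difference from tbphΔ23 was 0.28 (adjusted p = 0.0638) and from w1118 0.19 (adjusted p = 0.179), neither of which passed. The mutants differed from w1118 by -0.09 (tbphΔ23, adjusted p = 0.638) and -0.19 (tbphΔ142, adjusted p = 0.212). The call against tbphΔ142 was lost without the first or the third tbphΔ142 array or the third rescue array (adjusted p = 0.0656, 0.0624 and 0.0626). A call was gained in 1 of 14 alternative settings for tbphΔ142 against w1118 (limma adjusted p = 0.0427). The same held for the rescue against tbphΔ23, with array weights (0.31, adjusted p = 0.0349).

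The partner gene usp, the fly counterpart of the vertebrate retinoid X receptor, read 7.38, 7.45 and 7.56 in w1118, 7.23, 7.42 and 7.34 in tbphΔ23, 7.29, 7.13 and 7.17 in tbphΔ142 and 7.22, 7.23 and 7.28 in the rescue. Every array of tbphΔ142 and of the rescue was below every w1118 array, while tbphΔ23 overlapped w1118. In whole heads fewer cells of a type and less RNA per cell cannot be told apart, here or for any gene below. The level fell in tbphΔ142 (log2 difference -0.26 ± 0.07 SE, 1.20-fold, limma adjusted p = 0.0181) and in the rescue (-0.22, 1.17-fold, adjusted p = 0.0322). The difference of tbphΔ23 from w1118 was -0.13 (adjusted p = 0.234) and the alleles differed by -0.13 (adjusted p = 0.408), so an allele difference was not shown. These are small changes near the threshold: of 14 alternative settings each, 4 lost the call in tbphΔ142 and 10 lost it in the rescue.

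The most changed member was Eip78C, which encodes a nuclear receptor related to Eip75B and to vertebrate Rev-erb and is induced by ecdysone at the onset of metamorphosis. It is read by 1 probe set. In w1118 its levels were 6.79, 7.23 and 6.70, in tbphΔ23 6.18, 6.11 and 6.69, in tbphΔ142 5.50, 5.19 and 5.63, and in the rescue 4.67, 4.36 and 4.46. No 2 groups overlapped, although the third tbphΔ23 array came within 0.01 of the lowest w1118 array. The group means were 6.91 ± 0.29 in w1118, 6.33 ± 0.32 in tbphΔ23, 5.44 ± 0.23 in tbphΔ142 and 4.50 ± 0.16 in the rescue (SD, n = 3 each).

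Eip78C fell 2.77-fold in tbphΔ142 against w1118 (log2 difference -1.47 ± 0.18 SE, limma adjusted p = 1.08e-04). In tbphΔ23 the fall was 1.49-fold (-0.58, 95% confidence interval -0.97 to -0.18, adjusted p = 0.0406). The difference between the alleles was itself called, tbphΔ142 being 1.85-fold lower than tbphΔ23 (-0.89, adjusted p = 0.0218). The rescue did not lie between the mutants and w1118 but below all of them. It was 3.56-fold below tbphΔ23, the allele it carries (-1.83, adjusted p = 1.48e-05), 1.92-fold below tbphΔ142 (-0.94, adjusted p = 0.00232) and 5.31-fold below w1118 (-2.41, adjusted p = 9.18e-07). The rescue arrays of Eip78C read near the median level of an array, 4.40 to 4.50, so the size of these falls is uncertain. The calls for tbphΔ142 against w1118 and for all 3 rescue comparisons held in each of 14 alternative settings, and without the first rescue array the rescue was -2.50 from w1118. The call for tbphΔ23 was less secure. It was lost when the first or second w1118 array or the first or second tbphΔ23 array was left out (adjusted p = 0.0592, 0.148, 0.132 and 0.15).

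The early gene br (broad) encodes a family of BTB zinc finger proteins made by alternative splicing and needed for metamorphosis. Its gene-level value, the median of 5 probe sets, read 3.11, 3.22 and 3.12 in w1118, 3.20, 3.20 and 3.09 in tbphΔ23, 3.30, 3.16 and 3.21 in tbphΔ142 and 3.13, 3.30 and 3.38 in the rescue. It was called in none of the 6 comparisons, also at an unadjusted limma p under 0.05 (0 of 6), and the widest difference was 0.12 in the rescue against w1118 (95% confidence interval -0.05 to 0.29, adjusted p = 0.25). That median is set by dim probe sets: 3 of the 5 stayed below the lowest array median, 4.40, on all 12 arrays.

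The remaining 2 br probe sets were brighter and were looked at singly, in a fit over 13647 probe sets. Probe set 1635691_at read 5.59, 5.55 and 5.60 in w1118, 6.01, 6.22 and 5.99 in tbphΔ23, 6.02, 5.95 and 6.09 in tbphΔ142 and 5.69, 5.80 and 5.91 in the rescue. Both mutants lay above w1118 with no overlap, and the rescue lay between. The signal rose in tbphΔ23 (log2 difference 0.49 ± 0.08 SE, 1.41-fold, limma adjusted p = 0.00103) and in tbphΔ142 (0.44, 1.35-fold, adjusted p = 0.00172), where 21.1% and 24.2% of all probe sets were called. In the rescue it was lower than in tbphΔ23 (-0.27, adjusted p = 0.024; background 28.4%), and its differences from tbphΔ142 (-0.22, adjusted p = 0.0647) and from w1118 (0.22, adjusted p = 0.0533) did not pass. This probe set was singled out after its values were seen. Both mutant calls held in 12 of 12 alternative settings, with differences from 0.40 to 0.53, and the fall in the rescue against tbphΔ23 was lost in 6 of 12. The other bright probe set, 1626996_s_at, had means of 6.09 in w1118, 6.36 in tbphΔ23, 6.25 in tbphΔ142 and 6.27 in the rescue, and was called in none of 6 comparisons (adjusted p = 0.122 for tbphΔ23 against w1118, the 1 comparison with an unadjusted p under 0.05). None of the sources used here gives which br isoforms each probe set reads.

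**Figure D3:**
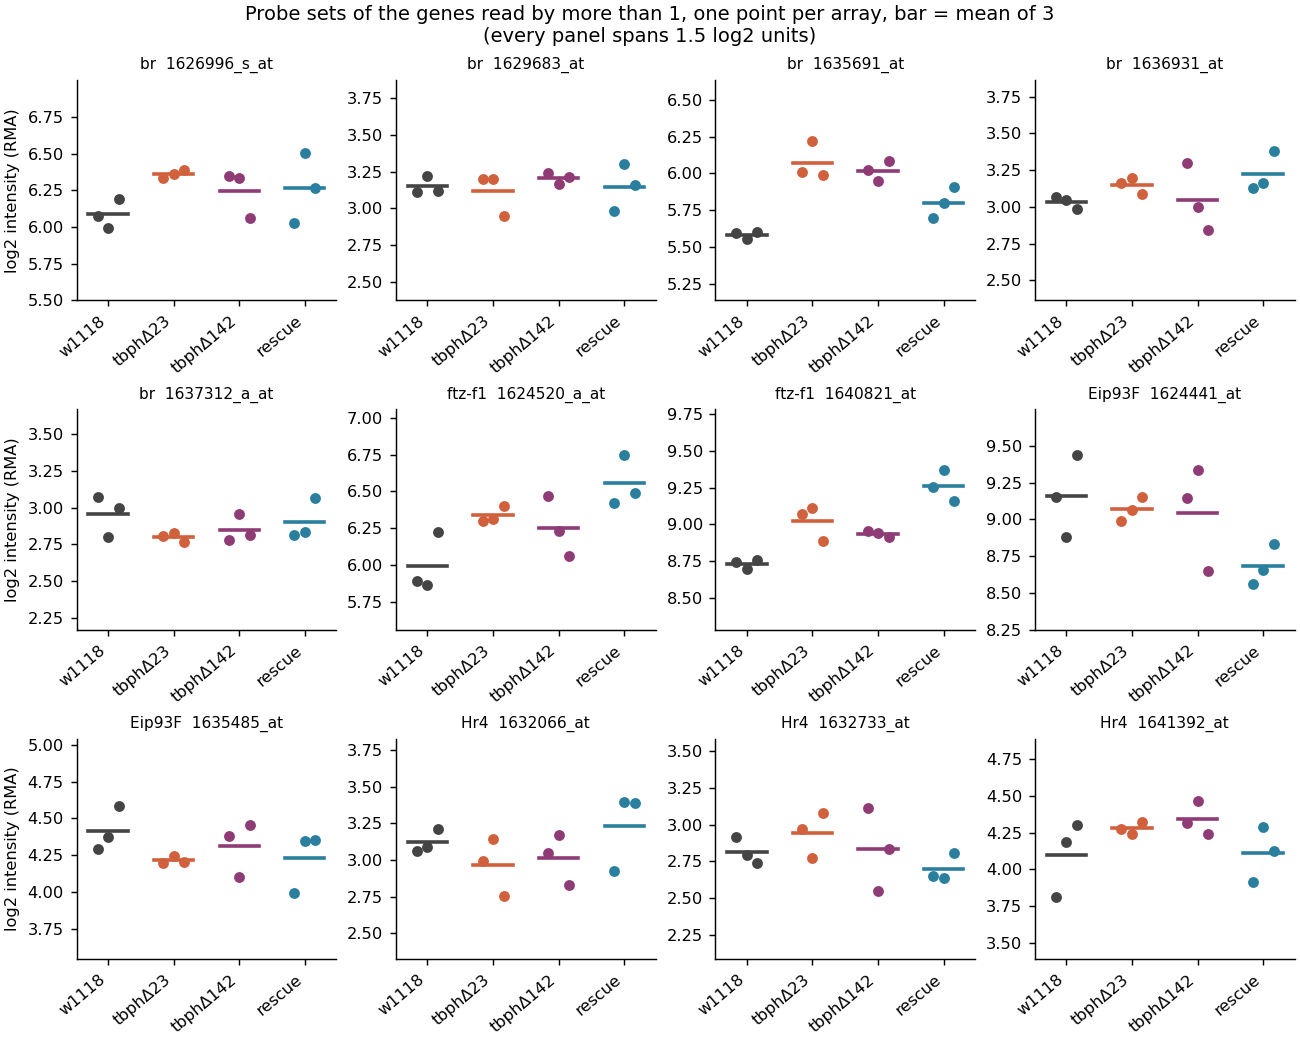
Every probe set of the 4 genes read by more than 1 (br, Eip93F, Hr4 and ftz-f1). The y axis is log2 RMA intensity, with the same span in each panel, points are arrays and bars are means of 3. For br, probe set 1635691_at is higher in both mutants than in w1118 (5.58 in w1118, 6.07 in tbphΔ23 and 6.02 in tbphΔ142), and 3 of the 5 stay at 3.38 or below.

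Eip93F (E93) encodes a transcription factor of the late larval to adult transition that specifies adult fates and is also needed for the death of salivary gland cells. It read 6.72, 6.62 and 7.01 in w1118, 6.59, 6.65 and 6.68 in tbphΔ23, 6.76, 6.72 and 6.55 in tbphΔ142 and 6.28, 6.50 and 6.59 in the rescue. The mutants overlapped w1118, and the 3 rescue arrays were below all w1118 arrays. The rescue was lower than w1118 (log2 difference -0.33 ± 0.11 SE, 1.26-fold, limma adjusted p = 0.034), while tbphΔ23 (-0.14, adjusted p = 0.41) and tbphΔ142 (-0.11, adjusted p = 0.541) did not pass. Of its 2 probe sets the brighter, 1624441_at, had means of 9.16 in w1118 and 8.68 in the rescue (adjusted p = 0.0495, where 34.3% of all probe sets were called), and the dimmer, 1635485_at, 4.42 and 4.23 (adjusted p = 0.264). The call was lost in 6 of 14 alternative settings, among them the fit without the first rescue array (adjusted p = 0.112).

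Hr3 and Hr4 are nuclear receptors of the wave that follows the early genes, and neither was called in any comparison (0 of 6 each, also at an unadjusted limma p under 0.05). Hr3 read 6.05, 5.76 and 6.13 in w1118, 6.06, 5.91 and 6.30 in tbphΔ23, 6.01, 6.27 and 6.07 in tbphΔ142 and 6.06, 6.02 and 6.06 in the rescue. All 4 groups overlapped. The differences from w1118 were 0.11 (95% confidence interval -0.15 to 0.37) in tbphΔ23, 0.14 (-0.12 to 0.39) in tbphΔ142 and 0.06 (-0.19 to 0.32) in the rescue. Hr4 was dim, with gene-level values of 2.84 to 3.39 over the 12 arrays, and 2 of its 3 probe sets stayed below the lowest array median on all arrays. Its differences from w1118 were -0.05 in tbphΔ23, -0.08 in tbphΔ142 and 0.11 in the rescue (limma adjusted p = 0.859, 0.718 and 0.535). Its differences in the rescue from tbphΔ23 (0.16, adjusted p = 0.393) and from tbphΔ142 (0.19, adjusted p = 0.301) did not pass, but without the first rescue array, which read 2.92 against 3.39 and 3.38 on the other 2, both were called (0.31, adjusted p = 0.0342, and 0.35, adjusted p = 0.0228). At such low signal a change in Hr4 or in the dim br probe sets would be compressed.

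Downstream of Hr3, ftz-f1 encodes the orphan receptor that sets the competence of tissues to respond to the next hormone pulse. It read 7.32, 7.28 and 7.49 in w1118, 7.68, 7.71 and 7.64 in tbphΔ23, 7.71, 7.59 and 7.49 in tbphΔ142 and 7.84, 8.06 and 7.82 in the rescue. The rescue arrays were the 3 highest of the 12, tbphΔ23 did not overlap w1118, and tbphΔ142 met it at its lowest array. Against w1118 the level rose 1.46-fold in the rescue (log2 difference 0.55 ± 0.09 SE, limma adjusted p = 3.84e-04) and 1.25-fold in tbphΔ23 (0.32, adjusted p = 0.0215). In tbphΔ142 the difference was 0.23 (adjusted p = 0.073), and the alleles differed by -0.08 (adjusted p = 0.719). The rescue was also above tbphΔ142 (0.31, adjusted p = 0.0185), and its difference from tbphΔ23 was 0.23 (adjusted p = 0.069). Both probe sets rose in the rescue against w1118: 1640821_at had means of 8.73 in w1118 and 9.26 in the rescue (0.53, adjusted p = 1.62e-04), and 1624520_a_at 5.99 and 6.56 (0.56, adjusted p = 0.00413). Against tbphΔ142, where 26.6% of all probe sets were called, 1640821_at rose by 0.32 (adjusted p = 0.00753) and 1624520_a_at was 0.30 higher (adjusted p = 0.103), and between the alleles, where 3.57% were called, neither passed. In the rescue against tbphΔ23 (28.4% called), 1640821_at passed (0.24, adjusted p = 0.0327) and 1624520_a_at did not (0.22, adjusted p = 0.237). In tbphΔ23 against w1118 (21.1% called), 1640821_at passed (0.29, adjusted p = 0.0174) and 1624520_a_at did not (0.35, adjusted p = 0.0748). The rise in the rescue over w1118 held in each of 14 alternative settings (0.47 to 0.61). The rises in tbphΔ23 over w1118 and in the rescue over tbphΔ142 were each lost in 5 of 14, among them the fits without either of the first 2 w1118 arrays (adjusted p = 0.0689 and 0.0756) or the first 2 tbphΔ23 arrays (0.0602 and 0.0729) for the former, and without the second or the third tbphΔ142 array (0.0518 and 0.0722) or the second rescue array (0.072) for the latter.

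Several marker lists differed between the rescue and w1118, as Eip78C, usp, Eip93F and ftz-f1 did. The mean level of 66 Cpr cuticle protein genes was 5.62 to 5.65 in w1118, 5.38 to 5.47 in tbphΔ23, 5.32 to 5.42 in tbphΔ142 and 4.63 to 4.67 in the rescue. Of these, 27 were lower and 3 higher in the rescue than in w1118, where 18.0% of all genes were lower and 16.9% higher; these shares apply to the marker counts that follow. The log2 of their summed signal was 14.86 to 14.98 in w1118, 14.37 to 14.52 in tbphΔ23, 14.19 to 14.35 in tbphΔ142 and 13.14 to 13.18 in the rescue, the same order of groups as for Eip78C. Muscle markers (6 of 9 measured) had 5 lower in the rescue than in w1118, with a log2 summed signal of 13.20 to 13.37 in w1118 and 12.14 to 12.59 in the rescue. Fat body markers (9 of 10 measured) had 8 higher, 14.41 to 15.16 against 16.23 to 16.37. Hemocyte markers (8 of 8) had 6 higher and 1 lower, 10.35 to 10.86 against 11.01 to 11.23.

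The 3 yolk protein genes, which mark female flies, had a log2 summed signal of 13.70 to 14.44 in w1118, 11.26 to 12.40 in tbphΔ23, 13.86 to 14.33 in tbphΔ142 and 15.38 to 15.45 in the rescue. The 3′ minus 5′ difference of the actin control probe sets, a sign of RNA quality, was 2.24 to 2.70 in w1118, 2.26 to 2.42 in tbphΔ23, 2.67 to 3.03 in tbphΔ142 and 1.82 to 2.29 in the rescue. For the GAPDH control it was 1.74 to 1.94, 1.84 to 1.90, 1.91 to 2.12 and 1.87 to 2.03 in the same groups, so the rescue was lowest by actin but not by GAPDH. By both controls all tbphΔ142 arrays lay above all tbphΔ23 arrays. The part of tissue composition, sex or RNA quality in the changes of Eip78C, EcR, usp, Eip93F and ftz-f1 was not tested.

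**Figure D4:**
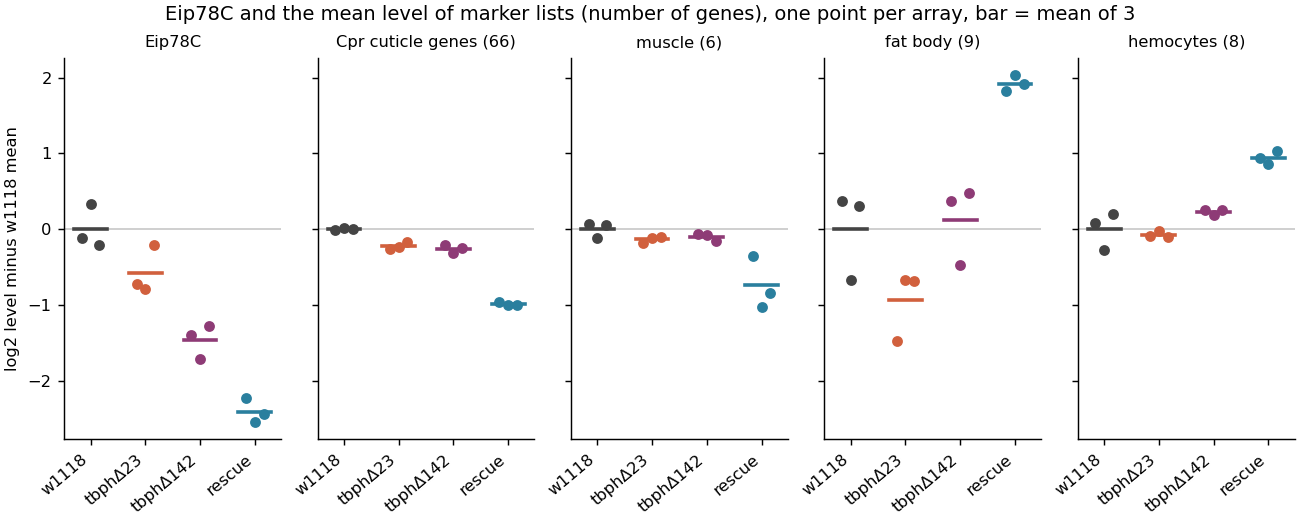
Eip78C beside the mean level of 4 marker lists, each as the log2 difference from its own w1118 mean. Points are arrays and bars are means of 3. Eip78C and the Cpr cuticle genes both step down to the rescue, while the fat body and hemocyte markers are highest there.

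Over the 12 arrays the genes whose pattern came closest to that of Eip78C were CG18528 (root mean square difference of the centred log2 values 0.13), Prosalpha5 (0.18) and Rpt2 (0.18). Prosalpha5 and Rpt2 encode subunits of the proteasome core and of its regulatory cap. Their means in w1118, tbphΔ23, tbphΔ142 and the rescue were 11.38, 10.72, 10.23 and 9.12 for Prosalpha5 and 10.93, 10.15, 9.70 and 8.53 for Rpt2. The same order of groups as in Eip78C follows from choosing genes by their likeness to it, and a link between them was not tested. Closest to ftz-f1 were Taf4, a subunit of the general transcription factor TFIID (0.08), fdl, which encodes a hexosaminidase (0.08), and CG10077 (0.09). Closest to EcR were Cortactin (0.07), CG40439 (0.08) and glo (0.08).

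The wider pathway was read through 6 lists of 106 further genes, of which 94 were measured. In tbphΔ23 against w1118, 12 were higher and 11 lower (24.5%, against 21.3% of all genes). In tbphΔ142, 6 were higher and 16 lower (23.4% against 25.0%). The rescue had 10 higher and 14 lower against tbphΔ23 (25.5% against 29.5%), 10 higher and 12 lower against tbphΔ142 (23.4% against 27.5%), and 13 higher and 18 lower against w1118 (33.0% against 35.0%). The median difference over the 94 genes was 0.02 in tbphΔ23 and 0.01 in tbphΔ142 against w1118, where it was -0.02 and -0.01 over all genes. Between the alleles 1 was higher and 0 lower (1.06% against 3.49%). In the comparisons with w1118 and with the rescue the shares called were near the background, and the changes are described gene by gene.

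**Figure D5:**
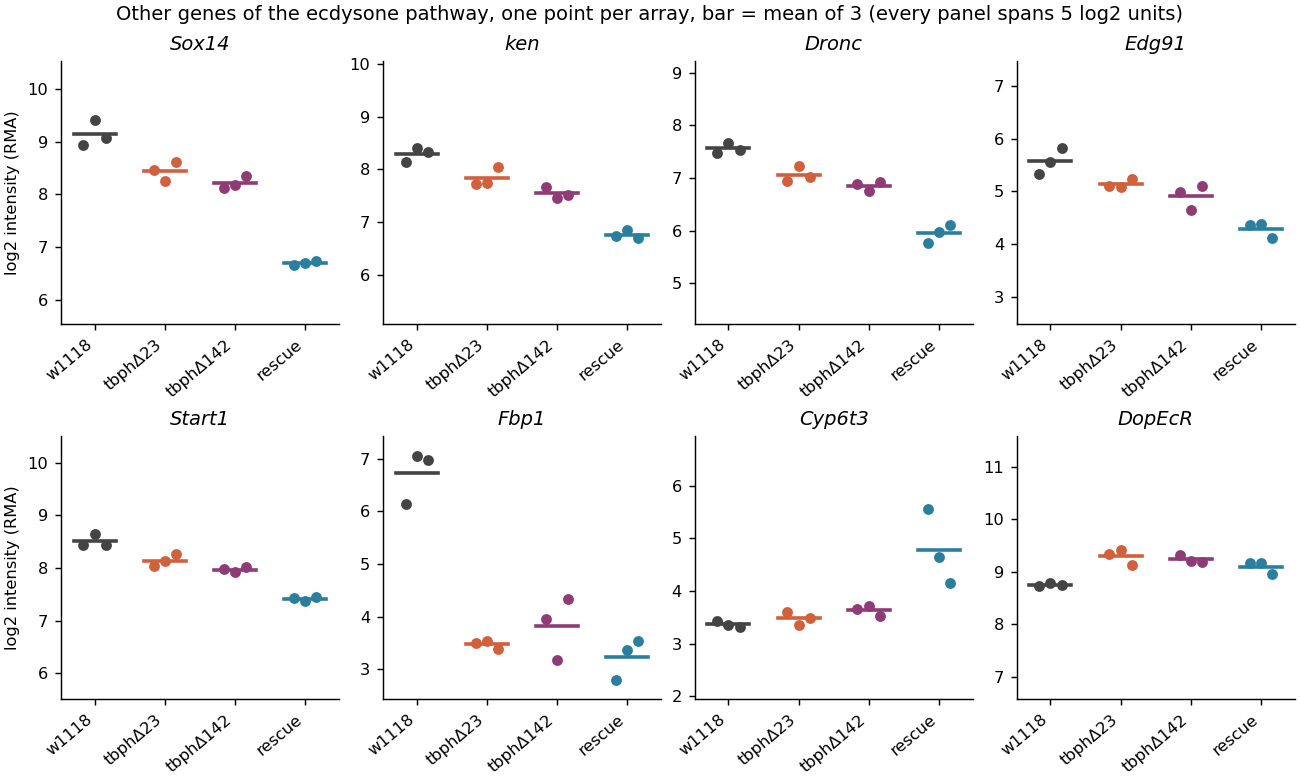
Level of 8 further genes of the pathway on each array, picked for display from those described in the text. They do not stand for all 94 measured, of which 13 were higher and 18 lower in the rescue than in w1118. The y axis is log2 RMA intensity with the same span in every panel, points are arrays and bars are means of 3. Sox14, ken, Dronc, Edg91 and Start1 step down from w1118 through both mutants to the rescue, Fbp1 is high in w1118 only, Cyp6t3 is highest in the rescue and DopEcR is lowest in w1118.

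Of 12 further transcription and timing factors measured, 4 were higher and 2 lower in tbphΔ23 than in w1118 (21.3% of all genes called), 3 and 2 in tbphΔ142 (25.0%), and 3 and 2 in the rescue (35.0%). Sox14 and ken were lower in both mutants and lower again in the rescue. Sox14, an ecdysone-induced factor needed for pruning of neuronal dendrites at metamorphosis, read 8.95, 9.41 and 9.06 in w1118, 8.46, 8.26 and 8.61 in tbphΔ23, 8.12, 8.18 and 8.34 in tbphΔ142 and 6.65, 6.70 and 6.74 in the rescue. Neither mutant overlapped w1118, and the rescue arrays were far below every other array. It fell 1.62-fold in tbphΔ23 (log2 difference -0.70, limma adjusted p = 0.00165), 1.90-fold in tbphΔ142 (-0.93, adjusted p = 1.72e-04) and 5.45-fold in the rescue (-2.45, adjusted p = 3.25e-08) against w1118. The repressor gene ken had means of 8.29, 7.83, 7.55 and 6.76 in w1118, tbphΔ23, tbphΔ142 and the rescue, and was lower than w1118 in each (adjusted p = 0.00773, 2.50e-04 and 3.58e-07). For Sox14 and ken the mutant and rescue calls held in all 14 alternative settings.

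The neuronal timing genes chinmo, a BTB zinc finger factor, and Imp, an RNA-binding protein, rose instead. The level of chinmo was 6.54 ± 0.23 in w1118, 7.06 ± 0.04 in tbphΔ23 and 7.11 ± 0.16 in tbphΔ142 (SD, n = 3; limma adjusted p = 0.00801 and 0.00396), and 6.84 ± 0.12 in the rescue (adjusted p = 0.0656 against w1118). Imp was 5.38 in w1118, 5.82 in tbphΔ23, 5.94 in tbphΔ142 and 5.94 in the rescue, and was higher than w1118 in all 3 (adjusted p = 0.00802, 0.00155 and 9.11e-04). The juvenile hormone response gene Kr-h1 was 7.97 in w1118 and 8.56 in the rescue (adjusted p = 0.0397, lost in 7 of 14 settings). The clock gene vri had means of 8.38 in w1118, 9.01 in tbphΔ23 and 9.37 in tbphΔ142, and both mutants lay above w1118 with no overlap. Neither mutant was called against w1118, in a fit that pools the spread of all 4 groups. Within the rescue vri varied widely (7.96 ± 1.23, SD, n = 3), with arrays of 9.21, 6.75 and 7.92. The rescue differed by -0.42 from w1118, which was not called. It was lower than tbphΔ142 (-1.41, limma adjusted p = 0.032), a call lost in 7 of 14 settings.

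Of 33 ecdysone-induced effector genes measured, tbphΔ23 had 3 higher and 5 lower than w1118 (21.3% of all genes called), tbphΔ142 had 0 higher and 7 lower (25.0%), and the rescue 3 higher and 6 lower (35.0%). Those higher in tbphΔ23 were MsrA (0.68), Ddc (0.49) and Eip63E (0.31, held in 8 of 14 settings). Those higher in the rescue were MsrA (0.63), Cth (0.41) and Npc2a (0.31). Except for Eip63E, these rises held in 14 of 14 settings. Dronc, the initiator caspase, read 7.49, 7.67 and 7.53 in w1118, 6.94, 7.23 and 7.02 in tbphΔ23, 6.89, 6.76 and 6.92 in tbphΔ142 and 5.78, 5.98 and 6.10 in the rescue. The groups' order was that of Eip78C, with the 2 mutants below w1118 and the rescue below both. It fell 1.41-fold in tbphΔ23, 1.63-fold in tbphΔ142 and 3.05-fold in the rescue against w1118 (limma adjusted p = 0.00395, 3.10e-04 and 1.92e-07). The cuticle gene Edg91 had means of 5.57, 5.14, 4.91 and 4.29 in the same order of groups, with adjusted p = 0.0492, 0.00462 and 2.16e-05 against w1118; the call in tbphΔ23 held in only 6 of 14 settings. ImpL1, an ecdysone-inducible gene of imaginal discs, fell to a like extent in the mutants and the rescue, from 6.19 in w1118 to 5.49, 5.46 and 5.32. Drip had means of 7.61, 7.20, 6.88 and 7.56 in the same order of groups. Its rescue arrays read 8.05, 7.33 and 7.31, so the rescue mean leans on the first rescue array. Drip fell in tbphΔ142 against w1118 (-0.73) and was higher in the rescue than in tbphΔ142 (0.68). The rescue was not called against tbphΔ23, the allele it carries. The calls for tbphΔ142 against w1118 and for the rescue against tbphΔ142 held in 14 of 14 settings, the latter with a difference of 0.44 at its lowest.

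Fbp1, the fat body receptor for larval serum proteins, had the widest differences from w1118 among the 33 effectors, and Fbp2 fell as well. Fbp1 read 6.15, 7.06 and 6.98 in w1118, 3.50, 3.53 and 3.39 in tbphΔ23, 3.96, 3.18 and 4.34 in tbphΔ142 and 2.80, 3.37 and 3.53 in the rescue. Only the w1118 arrays stood above the median level of an array. The differences from w1118 were -3.26 in tbphΔ23, -2.91 in tbphΔ142 and -3.49 in the rescue (limma adjusted p = 2.08e-05, 3.35e-05 and 3.13e-06). Fbp2 went from 4.90 in w1118 to 3.57, 3.84 and 3.40. The files carry no detection calls, so the size of a fall into this low range is uncertain. Of the 9 fat body markers given above, 4 were lower and 1 higher in tbphΔ23 than in w1118 (21.3% of all genes called). In tbphΔ142, 0 were lower and 2 higher (25.0%), and in the rescue 0 were lower and 8 higher (35.0%). Of these 9, 3 are the yolk protein genes. The part of fat body content in the falls of Fbp1 and Fbp2 was not tested.

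Of 16 measured genes of hormone synthesis, 0 were higher and 1 lower in tbphΔ23 than in w1118, 0 and 2 in tbphΔ142, and 1 and 3 in the rescue, against the same shares of 21.3%, 25.0% and 35.0% of all genes. Start1, which encodes a sterol transfer protein, fell in every group against w1118. It read 8.43, 8.65 and 8.44 in w1118, 8.03, 8.13 and 8.26 in tbphΔ23, 7.98, 7.92 and 8.01 in tbphΔ142 and 7.43, 7.37 and 7.46 in the rescue. No mutant or rescue array reached the w1118 arrays, and the differences were -0.36, -0.54 and -1.09 (limma adjusted p = 0.00546, 3.44e-04 and 5.90e-07). The cytochrome P450 gene Cyp6t3 was 3.43, 3.36 and 3.32 in w1118 and 5.56, 4.64 and 4.16 in the rescue, a rise of 1.42 that is largest on the first rescue array, and without that array it was still 1.03 (the lowest of 14 settings, with an adjusted p of at most 0.0153 over them). The w1118 arrays and the third rescue array were below the lowest array median, 4.40, so the size of this rise is uncertain. The sterol trafficking gene Npc1a fell in the rescue (-0.26, adjusted p = 0.00202) and ecd, needed for ecdysone production, fell in tbphΔ142 and in the rescue (-0.35 and -0.51, adjusted p = 0.02 and 0.00139). The enzyme genes nvd and shd, which act at the start and the end of synthesis, were dim (group means of 2.92 to 3.61) and not called.

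Of the 4 measured genes that take up, break down or sense the hormone, DopEcR, a membrane receptor for ecdysone and dopamine, read 8.73, 8.79 and 8.75 in w1118, 9.33, 9.42 and 9.13 in tbphΔ23, 9.33, 9.21 and 9.19 in tbphΔ142 and 9.17, 9.18 and 8.96 in the rescue. All 9 arrays of the other groups were above the 3 of w1118. It rose 1.45-fold in tbphΔ23, 1.40-fold in tbphΔ142 and 1.27-fold in the rescue (limma adjusted p = 0.00103, 0.00157 and 0.00911). E23, an ecdysone-induced transporter gene, was the 1 gene of these 94 that fell in both mutants and rose in the rescue against both: its means were 5.68 in w1118, 5.44 in tbphΔ23, 5.37 in tbphΔ142 and 5.81 in the rescue (adjusted p = 0.0448 and 0.0126 against w1118, 0.0034 and 0.00147 for the rescue against each mutant). The fall in tbphΔ23 held in only 5 of 14 settings. Cyp18a1, which inactivates the hormone, fell in tbphΔ23 from 7.18 to 6.86 (adjusted p = 0.0274, held in 10 of 14 settings), and was 7.25 in tbphΔ142 and 7.22 in the rescue, neither of which differed by the test from w1118 (adjusted p = 0.655 and 0.786).

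Of the receptor cofactors, 15 of 16 were measured. Of these, 3 were higher and 0 lower in tbphΔ23 than in w1118, 1 was higher and 1 lower in tbphΔ142, and 3 were higher and 1 lower in the rescue, where 21.3%, 25.0% and 35.0% of all genes were called. The corepressor gene Smr rose in tbphΔ23 and tbphΔ142 (0.32 and 0.41, limma adjusted p = 0.0404 and 0.0099), and the coactivator gene tai (taiman) fell in tbphΔ142 (-0.32, adjusted p = 0.0438). The level of tai in the rescue was 0.55 above that in tbphΔ142 (adjusted p = 0.00214). The calls for Smr in tbphΔ23 and for tai in tbphΔ142 held in 8 and 7 of 14 settings. The juvenile hormone receptor gene gce was higher in the rescue than in w1118 (0.33, adjusted p = 0.00732), while the related Met was not called. In the rescue against w1118 the chromatin remodeller gene Iswi (0.41, adjusted p = 8.75e-04) and the chaperone gene Hsc70-4 (0.32, adjusted p = 0.00287) were also higher, and the histone demethylase gene Utx was lower (-0.37, adjusted p = 0.00568).

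Of 14 other nuclear receptor genes, 1 was higher and 1 lower in tbphΔ23 than in w1118 (21.3% of all genes called), 1 was higher and 3 lower in tbphΔ142 (25.0%), and 2 were higher and 6 lower in the rescue (35.0%). knrl (knirps-like) fell in both mutants and the rescue, from 6.21 in w1118 to 5.64, 5.61 and 5.47 (limma adjusted p = 0.00364, 0.00213 and 2.62e-04). Hr39, of the same receptor family as ftz-f1, had means of 5.11, 5.08, 4.81 and 4.64 in w1118, tbphΔ23, tbphΔ142 and the rescue, and fell in tbphΔ142 (adjusted p = 0.0271, held in 8 of 14 settings) and in the rescue (adjusted p = 0.00119). Its direction in the rescue was thus opposite to that of ftz-f1. Of the 14, eg had the widest mean change of both alleles (-0.69). It fell in tbphΔ142 (-0.88, held in 14 of 14 settings) and in the rescue (-0.56, held in 7 of 14). Its signal was low, with group means of 3.40 to 4.28. Hr83, also dim, was higher than w1118 in tbphΔ23 (0.26, held in 10 of 14), tbphΔ142 (0.33, 14 of 14) and the rescue (0.32, 14 of 14).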

How the data were processed

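From 12 Affymetrix Drosophila Genome 2.0 arrays, labelled by 3′ in vitro transcription, the authors made log2 values by RMA (background correction, quantile normalization, summarization per probe set), and these log2 values were deposited as 1 table of 18952 probe sets. No source used here gives the RMA version. The table spans 2.318 to 14.229, and the depth of an array is not counted, so the number of arrays limits the precision. Of the probe sets, 13647 had 1 gene in the platform annotation; 402 with several genes and 4903 not listed were left out. Symbols were updated through the gene ID for 13544 and kept for 103. Probe sets were collapsed by the median to 11982 genes, with no filter on level.

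A single limma fit (version 3.58.1, R 4.3.3) of the 4 group means used all 12 arrays, with two-sided p-values adjusted by Benjamini-Hochberg over all genes within each of 6 comparisons. The median standard error of a difference was 0.0928. The fit was tested on simulated data.

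The members and lists were chosen with earlier results of these data known. Besides the members, genes were drawn, per list, from up to 5 with the widest mean difference of both alleles. Up to 5 with the widest difference of the rescue from w1118 were added. Not every gene drawn this way is described. The effectors called higher than w1118 were named as well. For the 3 members with the widest range, the 3 genes nearest by root mean square difference were named. Alternatives changed the collapse, the dim genes, scaling, prior, weights, replicate block, groups fitted, and left out each array.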

Additional observations from a re-analysis of the deposited data

Results flagged for a closer look

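For 2 genes the effect of the 2 alleles against w1118 differed by the test of the difference itself. For Eip78C the change in tbphΔ142 was -0.8891 on the log2 scale relative to that in tbphΔ23 (limma adjusted p = 0.0218 over all genes), and all 3 tbphΔ142 arrays lay below all 3 tbphΔ23 arrays. The call was lost without the third tbphΔ23 array, the first tbphΔ142 array or the second tbphΔ142 array (adjusted p = 0.0819, 0.0642 and 0.0824), with differences of -0.71 to -0.92 in these 3 fits.

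For Cyp18a1, which inactivates 20-hydroxyecdysone, tbphΔ142 was 0.3915 above tbphΔ23 (limma adjusted p = 0.042). The arrays read 6.99, 6.78 and 6.80 in tbphΔ23 and 7.31, 7.24 and 7.20 in tbphΔ142, with no overlap. The call held in 7 of 14 alternative settings, with differences of 0.35 to 0.46 and an adjusted p of at most 0.159. The alleles also differed in the 3′ minus 5′ values of the actin and GAPDH controls. The part of this in the allele differences of Eip78C and Cyp18a1 was not tested.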

How the results depend on the processing

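For Eip78C in tbphΔ142 against w1118 and in the rescue against each other group, and for ftz-f1 in the rescue against w1118, direction and call held in all 14 settings. Of the 8 members, the number called changed by more than 1.5 times as follows. With the brightest probe set per gene, with quantiles equalised again and with array weights it was 2 for the rescue against tbphΔ23, and 3 in the fit per probe set. With array medians centred it was 1 in tbphΔ23, 1 in tbphΔ142 and 2 in the rescue against w1118, and it was 2 in the latter with quantiles equalised again and in the fit of those 2 groups alone. Leaving out 1 array gave 0 to 2 in tbphΔ23 and 1 to 2 in tbphΔ142 against w1118, 1 to 2 and 1 to 4 in the rescue against tbphΔ23 and tbphΔ142, 2 to 4 in the rescue against w1118, and 0 to 1 between the alleles. The causes were not tested.

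Replicate numbers did not pair the samples: over 18 same-numbered pairs of different groups, deviations correlated from -0.212 to 0.0914, and 3 of 12 arrays correlated best with their own number. With the replicate block 1 member was called in tbphΔ23 against w1118, since Eip78C (-0.58) then had an adjusted p of 0.0639.

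Only differences that were not called changed sign. With the brightest probe set these were Hr4 in tbphΔ23 (0.18) and tbphΔ142 (0.24) against w1118, in the rescue against each mutant (-0.17 and -0.23) and between alleles (0.061), br in the rescue against tbphΔ23 (-0.095) and between alleles (-0.11), and Eip93F between alleles (-0.0245). With medians centred Hr4 between alleles became 0.0074. Leaving out 1 array, br ranged from -0.0031 to 0.053 in tbphΔ23 against w1118 and from -0.011 to 0.12 in the rescue against tbphΔ142, and its probe set 1635691_at from -0.094 to 0.020 between alleles. Hr3 ranged from -0.0033 to 0.20 in tbphΔ23 and from -0.047 to 0.14 in the rescue against w1118, from -0.13 to 0.061 and from -0.13 to 0.0051 in the rescue against tbphΔ23 and tbphΔ142, and from -0.061 to 0.13 between alleles. Eip93F ranged from -0.19 to 0.0055 in tbphΔ142 against w1118 and from -0.0052 to 0.098 between alleles, and Hr4 from -0.14 to 0.023 and from -0.098 to 0.070 in the same comparisons. Leaving out dim genes removed br and Hr4. The 94 further pathway genes gave 13 to 28 calls in tbphΔ23 against w1118 (main 23), lowest without the second tbphΔ23 array, and 0 to 3 between the alleles.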
